A study of Homo sapiens with 12 samples.

Results

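The interferon-stimulated genes and their regulators comprised 49 genes, chosen by symbol as a fixed list, of 30008 gene symbols in either count table, and all 49 were listed in both tables. They were followed in 2 RNA-Seq experiments on the human prostate cancer cell line LNCaP, with 3 libraries per group. In the silencing experiment, LNCaP-ER cells, an LNCaP derivative selected for resistance to the drug enzalutamide, carried a doxycycline-inducible MUC1 shRNA and were treated with DMSO vehicle or with 500 ng/mL doxycycline (DOX) for 7 days. In the overexpression experiment, LNCaP cells (wild-type per the labels, vector per the column names) served as the control for LNCaP/MUC1-C OE cells, which overexpress MUC1-C, the transmembrane subunit of the MUC1 mucin, and which the labels describe as tetMUC1-C. The libraries came from triplicate cultures of each line, and transduced cells were selected with puromycin. No library had DOX without the MUC1 shRNA, so that effects of DOX and of the shRNA cannot be told apart, and whether the MUC1-C OE cells were given DOX is not stated. The overexpression groups were cultures of different lines. Effects of MUC1-C thus cannot be told apart from other differences between the lines, and p-values measure the spread among cultures.

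Interferons are secreted proteins that bind receptors on the cell surface and, through the kinases JAK1 and TYK2, activate STAT factors such as STAT2, which joins IRF9 in the complex ISGF3. ISGF3 and factors of the IRF family bind interferon-stimulated response elements (ISRE), and STAT dimers bind gamma-activated sites (GAS), upstream of genes whose products sense viral RNA, block translation or tag proteins for modification. In tumor cells these genes can also be expressed without infection, and their basal level differs between lines.

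Of the 49 genes, 41 had a promoter in the RefSeq table (GRCh38.p14; the labels give GRCh38), taken as 250 bases before to 50 after each start site. The ISRE core, written here as GAAA, any 2 bases and GAAA again, was searched on both strands and was found in 27 of these 41 genes (65.9%) and in 4.38% of the 27305 genes with a promoter in the table. The GAS letters TTCNNNGAA, which read the same on both strands, were found in 12 of 41 (29.3%) and in 9.38% of all genes. The ISRE core was present in 2 of the 7 genes with a promoter that were higher with DOX, in 2 of the 3 that were lower, and in 22 of the 28 that were not called. In the overexpression experiment it was present in 12 of the 19 genes that were lower and in 2 of the 3 that were higher. The stretches below are shown because they lie upstream of genes on which the comparisons turn. ISG15, IRF1, IFITM1 and PARP14 changed with DOX, IFIT1 was highest in 1 DOX library, BST2, TRIM14 and SAMD9 fell with MUC1-C OE, and PLSCR1 and IFI44L rose. Each is printed 5′ to 3′ on the strand of its gene with the matched letters in capitals, which are the GAS letters for IRF1 and the ISRE core for the others (on the opposite strand for IFIT1 and TRIM14). Letters that match a motif are a description and not a measured binding site.
ISG15, chr1:1013364-1013419, plus strand, 97 bases before the start site: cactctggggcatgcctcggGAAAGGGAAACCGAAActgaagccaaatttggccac
IRF1, chr5:132490869-132490917, minus strand, 115 bases before the start site: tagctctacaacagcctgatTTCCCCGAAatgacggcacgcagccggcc
IFITM1, chr11:313980-314029, plus strand, 30 bases before the start site: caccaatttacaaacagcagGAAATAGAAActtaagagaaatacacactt
PARP14, chr3:122680790-122680838, plus strand, 19 bases before the start site: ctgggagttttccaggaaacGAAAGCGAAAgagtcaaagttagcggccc
IFIT1, chr10:89392487-89392549, plus strand, 93 bases before the start site: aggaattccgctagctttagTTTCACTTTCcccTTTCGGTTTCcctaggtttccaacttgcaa
BST2, chr19:17405725-17405780, minus strand, 114 bases before the start site: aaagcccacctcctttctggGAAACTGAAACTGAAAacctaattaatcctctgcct
TRIM14, chr9:98119223-98119268, minus strand, 16 bases before the start site: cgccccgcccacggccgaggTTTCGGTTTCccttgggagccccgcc
SAMD9, chr7:93118086-93118135, minus strand, 126 bases before the start site: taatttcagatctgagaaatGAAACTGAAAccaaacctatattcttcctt
PLSCR1, chr3:146544657-146544706, minus strand, 81 bases before the start site: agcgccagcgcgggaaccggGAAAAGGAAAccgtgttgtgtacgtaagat
IFI44L, chr1:78620355-78620404, plus strand, 63 bases before the start site: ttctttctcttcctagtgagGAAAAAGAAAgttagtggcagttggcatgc

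The silencing libraries held 28045894 to 45807989 counts and the overexpression libraries 13806856 to 19208944. MUC1, the targeted gene, had 26, 10 and 13 counts in the vehicle libraries and 3, 42 and 8 in the DOX libraries, so that the library labelled DOX replicate 2 was above every vehicle library, against its label. That library also had the fewest genes without a count, 11.2% of the table against 28% to 38.1% in the other 5, and directions given for DOX are those of the labels. In the overexpression experiment MUC1 had 30, 25 and 31 counts in LNCaP and 9168, 9959 and 12622 in LNCaP/MUC1-C OE. Markers of prostate luminal cells were present in the LNCaP-ER libraries, KLK3 (prostate-specific antigen) at 4191 to 4577 counts with vehicle. In LNCaP/MUC1-C OE, KLK2, KLK3 and FOLH1 were at 0 counts in every library and TMPRSS2 at 0, 0 and 1, whereas HOXB13 had 488, 392 and 523 counts. The immune markers PTPRC and CD3E had at most 11 counts in any library of either experiment. The sum of 8 immune markers, mostly CD68, was 5.15 to 7.72 CPM with vehicle and 22.6 to 26.1 with DOX, and that of 4 epithelial markers was 1141 to 1207 and 1482 to 1648. The part of these in the DOX results was not tested.

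In LNCaP-ER cells treated with DOX, 11 interferon genes rose, 4 fell and 30 of the 45 tested did not reach a Benjamini-Hochberg adjusted p under 0.05 by the quasi-likelihood test of edgeR. The genes that rose were the transcription factors IRF1 and IRF7, the RNA sensor DDX58, OAS1, OAS2, OASL, IFIT2, RSAD2, ISG15, HERC6 and SP110, by 1.49-fold (HERC6) to 7.37-fold (RSAD2). The genes that fell were IFITM1, IFITM2, UBE2L6 and PARP14. The called share was 33.3% of the tested interferon genes and 27.3% of all genes tested, and by direction 24.4% were higher (12.8% of all genes) and 8.89% were lower (14.5% of all genes). The median log2 fold change of the 45 genes was 0.22, and that of all 14683 genes was -0.02. In bulk libraries fewer cells expressing a gene and less RNA per cell cannot be told apart. Every DOX library was above every vehicle library in 16 of the 45 genes (21.2% of all genes tested) and below in 7 (23% of all). MX2, SAMD9L, IFI27 and XAF1 were too low to test. The change of every gene in both experiments is plotted by role.

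**Figure D1:**
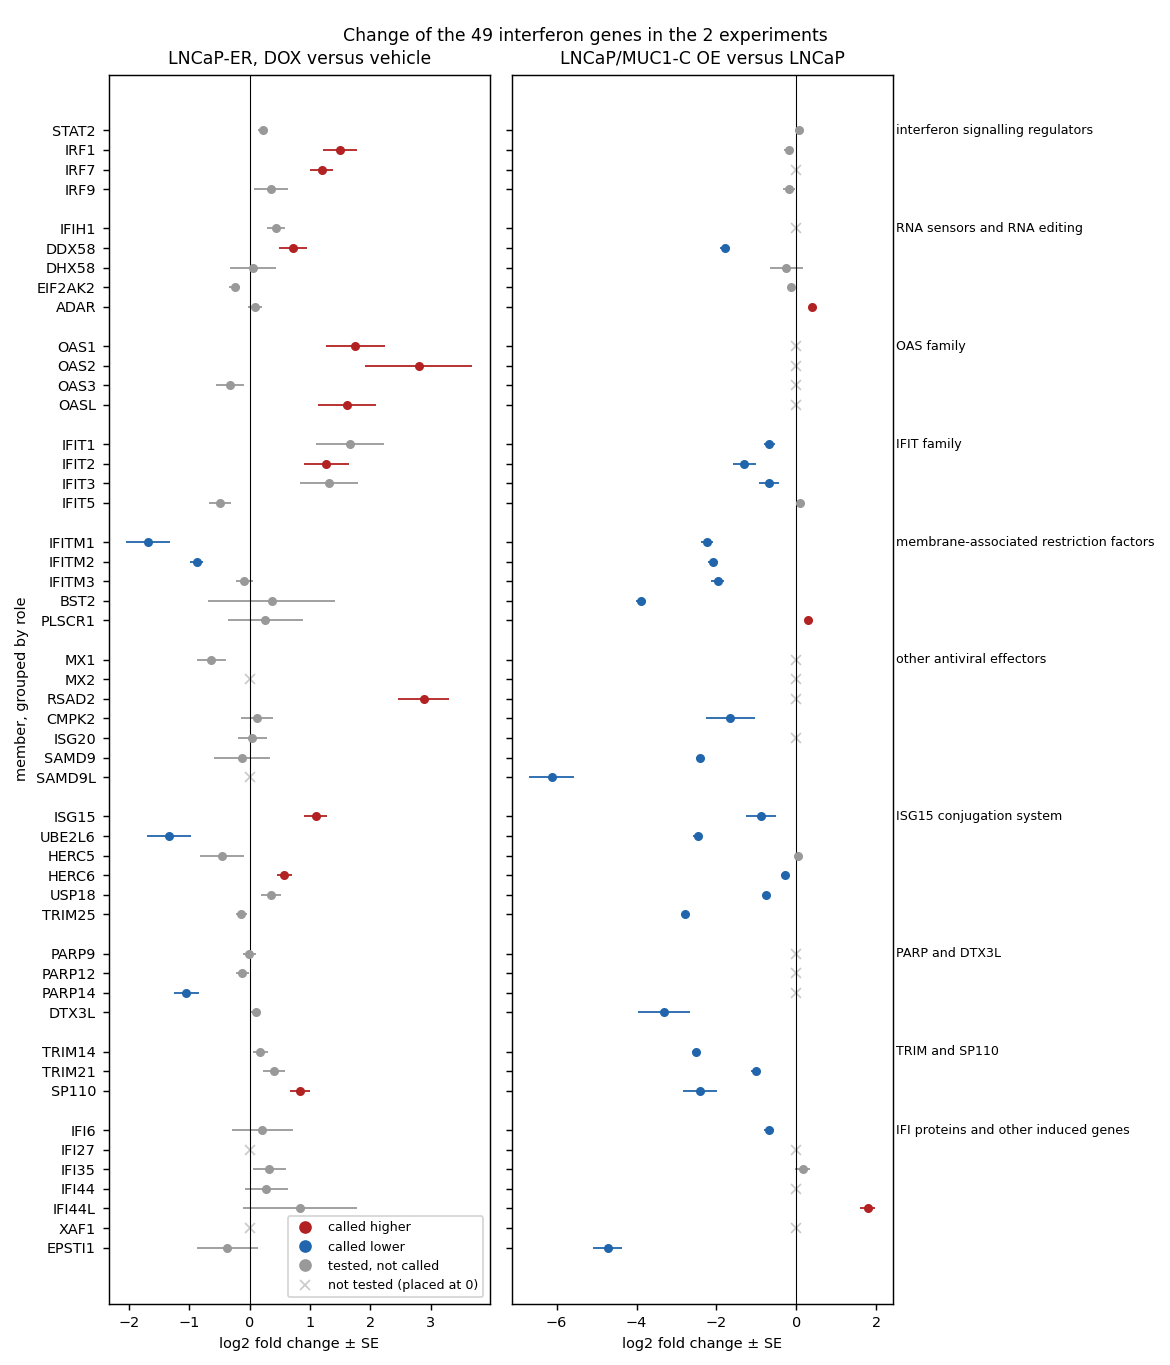
Log2 fold change (x axis, ± SE from edgeR) of the 49 interferon genes (y axis, grouped by role) for DOX against vehicle in LNCaP-ER cells (left) and for LNCaP/MUC1-C OE against LNCaP (right), with 3 libraries per group. Red and blue points are called higher and lower, grey points are tested and not called, and crosses mark genes too low to test. With DOX 11 genes are red and 4 blue, and with MUC1-C OE 22 are blue and 3 red.

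The third DOX library stood above the others for most of these genes. DOX 3 had the highest normalized CPM (counts relative to the TMM-scaled library total) of the 6 libraries in 29 of the 45 tested interferon genes (64.4%), against 17.9% of all tested genes. This count was made after the values were seen. Without DOX 3, 5 genes remained higher (IRF1, IRF7, RSAD2, ISG15 and SP110, 11.4% of 44 tested against 5.95% of all genes), and the median log2 fold change of the interferon genes was 0.04. Without the library labelled DOX replicate 2, 14 were higher (31.1% against 18.0% of all genes) and 4 lower. Fewer genes were higher without vehicle 1 (7, or 14.9% against 10.4% of all genes), vehicle 2 (6, or 12.8% against 6.15%) or vehicle 3 (5, or 10.6% against 5.49%), and the share over all genes fell as well. DESeq2 called 14 higher and 4 lower (31.1% and 8.89%, against 16.0% and 15.5% of all genes), and 4 of the 11 (IRF1, IRF7, RSAD2 and ISG15) kept their call under every alternative in which they were tested. On the TPM scale, 17 of 32 were higher (53.1%) and 1 was lower, where 43.8% of all genes were called higher and the median log2 change of all genes was 0.45.

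**Figure D2:**
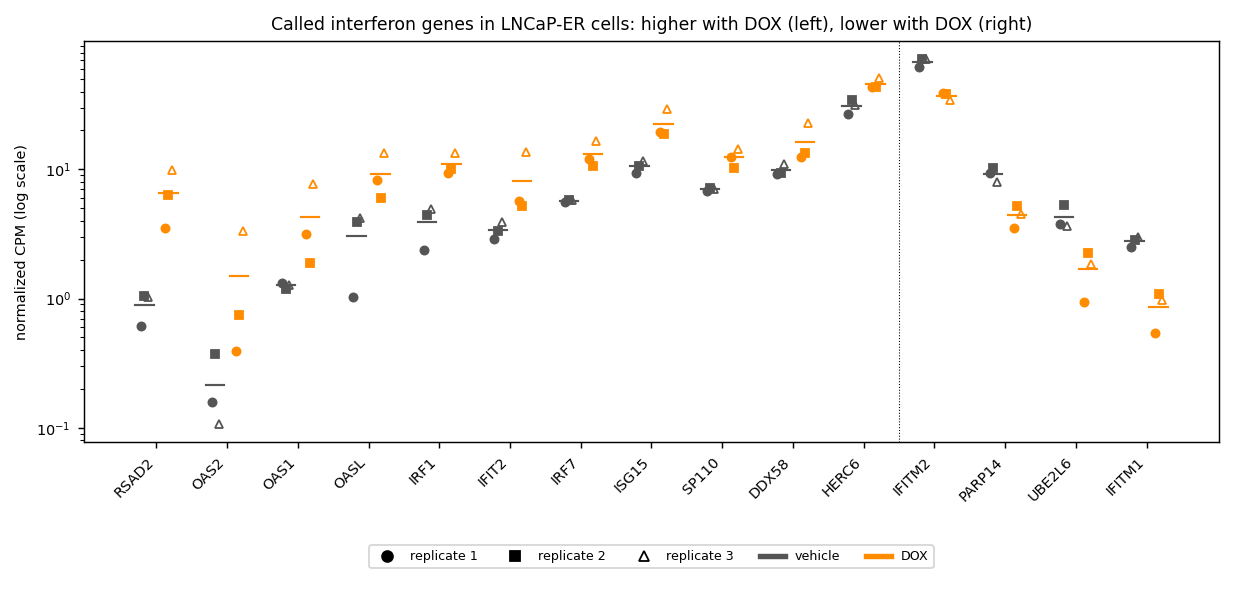
Normalized CPM (y axis, log scale) in each LNCaP-ER library for the 11 interferon genes called higher and the 4 called lower with DOX, separated by the dotted line. Symbols are replicates and short bars are group means. The open orange triangle (DOX 3) is the highest point of every gene on the left of the dotted line, for OAS2 at 3.32 CPM against 0.394 and 0.741 in the other DOX libraries.

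Among the regulators, IRF1, a transcription factor of the interferon response, was at 2.37, 4.42 and 4.90 normalized CPM with vehicle and at 9.34, 10.1 and 13.4 with DOX. Every DOX library was above every vehicle library, and IRF1 rose 2.83-fold (log2 fold change 1.5 ± 0.28 SE, edgeR adjusted p = 0.00613). IRF7, which drives the transcription of type I interferons, was at 5.58, 5.82 and 5.76 CPM with vehicle and at 11.9, 10.7 and 16.6 with DOX. The vehicle libraries differed little from each other, and IRF7 rose 2.29-fold (log2 1.19 ± 0.19, edgeR adjusted p = 0.00334). STAT2 had 61.9, 63.4 and 60.2 CPM with vehicle and 68.8, 73.4 and 74.1 with DOX, which did not overlap, although the change of 0.22 ± 0.09 on the log2 scale missed the threshold (edgeR adjusted p = 0.0852). IRF9 had 5.48, 3.61 and 4.16 CPM with vehicle and 4.09, 4.98 and 7.87 with DOX, so that the groups overlapped (log2 0.36 ± 0.29, edgeR adjusted p = 0.385). IRF9 shares 40.9% of the 75-base stretches of its annotated transcripts with AL136295.5, so that its counts are uncertain.

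Of the 5 genes that sense or edit double-stranded RNA, DDX58 (RIG-I) alone was called by edgeR with every library. It had 9.14, 9.42 and 10.9 CPM with vehicle and 12.4, 13.4 and 22.6 with DOX, and rose 1.65-fold (log2 0.72 ± 0.23, edgeR adjusted p = 0.0473). Its DOX 3 value was the farthest from the rest, and without that library the change was 0.38 (edgeR adjusted p = 0.165). The DDX58 call was also lost without vehicle 1, 2 or 3. ADAR, which converts adenosine to inosine in double-stranded RNA, was the most abundant of the group, at 464, 396 and 420 CPM with vehicle and 460, 403 and 498 with DOX. The groups overlapped for ADAR (log2 0.09 ± 0.11, edgeR adjusted p = 0.597) and for DHX58. IFIH1 (MDA5) was above every vehicle library in every DOX library (log2 0.43 ± 0.15, edgeR adjusted p = 0.0600), and EIF2AK2 (PKR) was below (log2 -0.25 ± 0.09, edgeR adjusted p = 0.0836). IFIH1 was called higher by DESeq2 (adjusted p = 0.0331), with a replicate block in edgeR (adjusted p = 0.0379) and without DOX 1 (edgeR adjusted p = 0.0468). It was also called when scaled by library totals only (edgeR adjusted p = 0.0358) and on the TPM scale (limma adjusted p = 0.00285 and 0.00295).

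The OAS genes encode enzymes that make oligoadenylates in response to double-stranded RNA, and OASL is a relative without this activity. OAS1, OAS2 and OASL were called higher and OAS3 was not called. OAS2 had 0.159, 0.374 and 0.107 CPM with vehicle and 0.394, 0.741 and 3.32 with DOX, from raw counts of 6, 11 and 3 against 13, 22 and 154. Most of the 6.98-fold difference thus lay in DOX 3 (log2 2.80 ± 0.89, edgeR adjusted p = 0.0448), and without that library the change was 1.39 (edgeR adjusted p = 0.291). OAS1 had 1.33, 1.19 and 1.28 CPM with vehicle and 3.15, 1.89 and 7.70 with DOX, a 3.37-fold rise (edgeR adjusted p = 0.0283) that missed the threshold without DOX 3 (log2 0.99, edgeR adjusted p = 0.149). OASL had 1.04, 3.88 and 4.19 CPM with vehicle and 8.31, 6.03 and 13.3 with DOX, a 3.07-fold rise (log2 1.62, edgeR adjusted p = 0.0356) that was 1.24 on the log2 scale without DOX 3 (edgeR adjusted p = 0.150). The calls of OAS1 and OAS2 were also lost without vehicle 1, 2 or 3, and that of OASL without vehicle 2, vehicle 3 or DOX 1. OAS3, the most abundant of the family, was at 31.0, 26.1 and 26.6 CPM with vehicle and at 19.5, 15.5 and 31.7 with DOX. It lies between OAS1 and OAS2 on chromosome 12 (112938474 to 112973251 in GRCh38.p14), 5254 bases from the former and 5267 from the latter. In OAS3, DOX 3 was high while the other DOX libraries were below every vehicle library (log2 -0.32 ± 0.23, edgeR adjusted p = 0.338), and without DOX 3 OAS3 was lower (log2 -0.68, edgeR adjusted p = 0.0323).

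The IFIT genes, whose products bind viral RNA ends, form a cluster on chromosome 10. IFIT2 had 2.90, 3.33 and 3.94 CPM with vehicle and 5.70, 5.19 and 13.5 with DOX and rose 2.41-fold (log2 1.27 ± 0.37, edgeR adjusted p = 0.0326), and without DOX 3 its log2 fold change was 0.68 (edgeR adjusted p = 0.119). The IFIT2 call was also lost without vehicle 1, 2 or 3. IFIT1 had 2.18, 2.04 and 2.70 CPM with vehicle and 4.27, 2.63 and 14.9 with DOX, and IFIT3 had 1.44, 2.72 and 1.95 against 2.76, 3.17 and 9.19. For all 3 genes DOX 3 was far above the other DOX libraries, and IFIT1 (edgeR adjusted p = 0.0574) and IFIT3 (edgeR adjusted p = 0.0715) missed the threshold. Both were called higher by DESeq2 (adjusted p = 0.00585 and 0.0198), with a replicate block in edgeR (adjusted p = 0.0309 and 0.0466) and without the library labelled DOX replicate 2 (edgeR adjusted p = 0.00839 and 0.0324). IFIT5, the most abundant, had 15.8, 15.8 and 16.2 CPM with vehicle and 8.43, 11.8 and 13.9 with DOX, the groups not overlapping (log2 -0.48 ± 0.18, edgeR adjusted p = 0.0794). It lies 8080 bases from IFIT1.

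Among the 5 membrane-associated factors 2 genes fell and none rose. IFITM1, which blocks virus entry at the cell surface, had 2.50, 2.86 and 2.99 CPM with vehicle and 0.546, 1.08 and 0.970 with DOX. All DOX libraries were below all vehicle libraries, and IFITM1 fell by 1.68 on the log2 scale (± 0.37 SE, edgeR adjusted p = 0.0109), a call that was lost without vehicle 3. IFITM2, its neighbor, had 61.8, 71.4 and 71.4 CPM with vehicle and 38.7, 38.4 and 34.2 with DOX and fell by 0.88 (± 0.10, edgeR adjusted p = 0.000988). IFITM3 had 60.2, 80.5 and 81.7 CPM with vehicle and 61.9, 73.2 and 74.6 with DOX, with overlapping groups (log2 -0.08 ± 0.14, edgeR adjusted p = 0.681). The 3 genes lie between 307816 and 320860 on chromosome 11, and share 8.05% (IFITM3) to 29.8% (IFITM1) of their 75-base stretches with other genes, mostly each other, so that reads may have been split between them. On the TPM scale the IFITM2 change missed the threshold. BST2 (tetherin), at 0 to 16 counts per library, and PLSCR1, at 7 to 22, were not called (edgeR adjusted p = 0.826 and 0.787).

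Among the other antiviral effectors, RSAD2 (viperin), a radical SAM enzyme, had 0.611, 1.05 and 1.03 CPM with vehicle and 3.52, 6.30 and 9.90 with DOX. The lowest DOX library was above the highest vehicle library, and RSAD2 rose 7.37-fold (log2 2.88 ± 0.42, edgeR adjusted p = 0.00225), the largest change of the 45 genes. Without DOX 3 its change was 2.44 (edgeR adjusted p = 0.0135). CMPK2, a nucleotide kinase whose gene overlaps RSAD2 by 751 bases on chromosome 2, was at 6.46, 4.97 and 5.79 CPM with vehicle and 4.09, 6.20 and 8.41 with DOX (log2 0.12 ± 0.27, edgeR adjusted p = 0.770). ISG20, the most abundant of the group, had 5.50, 7.65 and 9.17 CPM with vehicle and 6.03, 9.70 and 7.31 with DOX (edgeR adjusted p = 0.906). MX1, an antiviral GTPase, was lower in every DOX library than in any vehicle library (log2 -0.63 ± 0.24, edgeR adjusted p = 0.0827), and the groups overlapped for SAMD9 (edgeR adjusted p = 0.861). MX2 had 5, 1 and 1 counts with vehicle and 2, 21 and 10 with DOX, and SAMD9L had 0, 5 and 7 against 5, 3 and 10. Neither was tested.

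ISG15, a ubiquitin-like protein that is attached to other proteins, rose. It had 9.44, 10.6 and 11.7 CPM with vehicle and 19.6, 18.7 and 29.3 with DOX, a 2.14-fold difference (log2 1.10 ± 0.19, edgeR adjusted p = 0.00464). Its conjugating enzyme UBE2L6 had 3.80, 5.34 and 3.62 CPM with vehicle and 0.940, 2.26 and 1.85 with DOX and fell by 1.34 on the log2 scale (± 0.36, edgeR adjusted p = 0.0241), a call that was lost without DOX 3 (log2 -1.42, edgeR adjusted p = 0.0685), without vehicle 2 or without vehicle 3. The UBE2L6 call was also lost on the TPM scale, and over the alternatives its log2 fold change was from -1.55 to -0.448. The modifier and its conjugating enzyme thus changed in opposite directions. HERC6 rose 1.49-fold (log2 0.57 ± 0.13, edgeR adjusted p = 0.0114), and without DOX 3 its log2 fold change was 0.48 (edgeR adjusted p = 0.0564). The HERC6 call was also lost without vehicle 3. The neighboring HERC5, the ligase for ISG15 in human cells, had 5.77, 16.4 and 16.3 CPM with vehicle and 6.88, 11.2 and 9.85 with DOX, with vehicle 1 far below the other vehicle libraries (edgeR adjusted p = 0.385). Without vehicle 1, HERC5 was called lower (log2 -0.82, edgeR adjusted p = 0.0302). USP18, the protease that removes ISG15, was higher in every DOX library (log2 0.35 ± 0.17, edgeR adjusted p = 0.150). TRIM25, the most abundant of the group, had 123, 118 and 124 CPM with vehicle and 104, 122 and 105 with DOX (edgeR adjusted p = 0.310).

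Of the ADP-ribosyltransferases, PARP14 had 9.36, 10.2 and 7.92 CPM with vehicle and 3.49, 5.22 and 4.55 with DOX and fell by 1.05 on the log2 scale (± 0.21, edgeR adjusted p = 0.00720). PARP9 and its partner DTX3L, whose genes overlap by 447 bases (PARP14 lies 105635 bases from DTX3L), had log2 fold changes near 0 (edgeR adjusted p = 0.988 and 0.463), and PARP12 had one of -0.12 (edgeR adjusted p = 0.444). DTX3L, the most abundant, had 85.6, 95.2 and 95 CPM with vehicle and 92.0, 97.5 and 106 with DOX. SP110, a nuclear body protein, had 6.83, 7.14 and 7.0 CPM with vehicle and 12.4, 10.3 and 14.4 with DOX and rose 1.78-fold (log2 0.83 ± 0.17, edgeR adjusted p = 0.00781). TRIM14 had 101, 122 and 110 CPM with vehicle and 140, 106 and 130 with DOX (edgeR adjusted p = 0.320), and TRIM21 was not called, although its DOX libraries were all above its vehicle libraries. None of the 5 tested IFI and other induced genes was called (edgeR adjusted p from 0.414 to 0.788), the most abundant of them, IFI35, being at 5.02, 5.24 and 5.08 CPM with vehicle and 3.88, 6.70 and 8.63 with DOX. IFI27 and XAF1 were at 1, 3 and 1 and at 0, 0 and 6 counts with vehicle, and at 3, 16 and 31 and at 1, 31 and 52 counts with DOX. Neither was tested, and their higher values lay in the library labelled DOX replicate 2 and in DOX 3.

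Per gene length, on the TPM scale, the most abundant interferon genes of vehicle-treated LNCaP-ER cells were IFITM3 at 115 ± 7.44 TPM (SD, n = 3), IFITM2 at 91.8 ± 7.02 and ADAR at 37.9 ± 8.20. IFITM3 and IFITM2 lay further apart than their spread, and ISG15 followed at 16.6 ± 0.689. RSAD2, the gene with the largest change, was at 0.163 ± 0.0304 TPM, and 22 of the 49 genes were below 1 TPM with vehicle. RN7SK, a small nuclear RNA, held 35.2% to 37.7% of the TPM total in vehicle libraries and 24.6% to 31.4% in DOX libraries, and its part in the higher TPM of other genes with DOX was not tested.

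Ligands and receptors of the pathway were examined next. IFNB1, the type I interferon made by many cell types, had 0 counts in the vehicle libraries and 10, 1 and 3 in the DOX libraries. Of the type III interferons, IFNL1 had 3, 0 and 0 counts with vehicle and 1, 14 and 27 with DOX, IFNL2 had 6, 0 and 0 against 6, 16 and 19, and IFNL3 had 0, 0 and 0 against 2, 5 and 23. These genes were too low to test, the lambda counts were mostly in the library labelled DOX replicate 2 and in DOX 3, and sequence shared among the lambda genes may have split their reads. Their receptor chain IFNLR1 had 0 counts with vehicle and 4, 17 and 1 with DOX, whereas IFNAR1 (200, 172 and 185 CPM with vehicle against 236, 178 and 217) and IFNAR2 (21.0, 19.5 and 16.9 against 22.1, 20.2 and 23.3) overlapped. IFNG, IFNA1 and IFNE were at 0 counts in all 6 libraries, and IFNA2, IFNK and IFNW1 had 1, 1 and 3 counts, all in the library labelled DOX replicate 2.

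**Figure D3:**
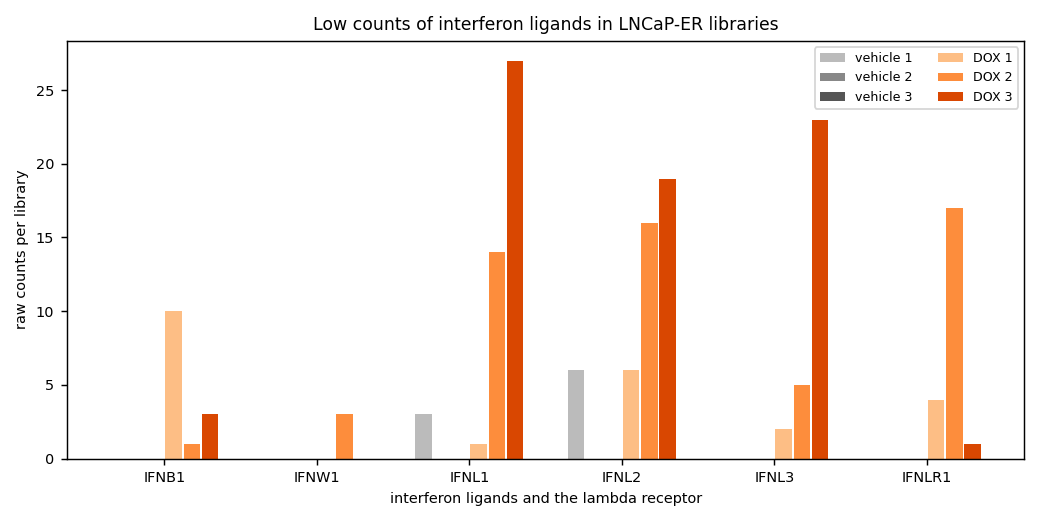
Raw counts (y axis, linear) of the interferon ligands with at least 3 counts in some library and of the receptor gene IFNLR1 (x axis) in the 3 vehicle (grey) and 3 DOX (orange) LNCaP-ER libraries. No bar exceeds 27 counts, and outside vehicle 1 the vehicle libraries are at 0.

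Of the 31 other pathway genes that could be tested (of 45 listed), 11 were higher and 3 lower with DOX, or 35.5% and 9.68% (12.8% and 14.5% of all genes). The kinase JAK1 had 6.83, 7.25 and 7.71 CPM with vehicle and 5.67, 7.44 and 8.39 with DOX (edgeR adjusted p = 0.958), and TYK2 had 39.8, 36.2 and 34.9 against 38.5, 40.6 and 44.5 (edgeR adjusted p = 0.294). The phosphatase PTPN6 rose 1.64-fold (edgeR adjusted p = 0.00856), from 17.1, 20.3 and 16.6 CPM with vehicle to 25.4, 28.6 and 34.5 with DOX. IFNGR1, a chain of the interferon gamma receptor, fell by 0.79 on the log2 scale (edgeR adjusted p = 0.0247), with vehicle values of 28.5, 49.3 and 51.0 CPM and DOX values of 27.2, 21.2 and 26.1. The IFNGR1 call was lost in 8 of 16 alternatives, where its log2 fold change was from -1.02 to -0.181. These included the fits without vehicle 2, vehicle 3 or the library labelled DOX replicate 2, and those on the TPM scale. Without DOX 3, the pathway genes called were 2 of 31 (IFNGR2 and PTPN6, not IFNGR1), without vehicle 2 they were 5 of 33 and without vehicle 3 they were 3 of 33. Of all genes, 13.7%, 14.4% and 13.1% were called in these fits, against 27.3% with every library.

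In LNCaP cells overexpressing MUC1-C, 22 interferon genes fell, 3 rose and 8 of the 33 tested missed the edgeR threshold. The genes that fell included BST2, TRIM25, TRIM14, UBE2L6, SAMD9, SAMD9L, EPSTI1, DDX58 and all 3 IFITM genes. Those that rose were ADAR, PLSCR1 and IFI44L. The called share was 75.8% of the tested interferon genes and 67.3% of all genes tested, and by direction 66.7% were lower (34.1% of all genes) and 9.09% higher (33.2% of all genes). The median log2 fold change was -0.89, against -0.01 over all 13836 genes. The groups did not overlap in 22 genes that were lower (35.9% of all genes tested) and in 3 that were higher (34.4%). With libraries scaled by their totals only, 24 genes were lower and 2 higher (46.2% and 22.0% of all genes), and DESeq2 called 18 lower and 3 higher (31.5% and 30.7% of all genes). In the main fit 16 genes were too low to test, and IRF7, OAS2, MX1, MX2, RSAD2, PARP14 and XAF1 among them had at most 3 counts in every library. Between the same groups, the sum of 10 prostate luminal markers was 222 to 241 CPM in LNCaP and 78.2 to 83.8 in LNCaP/MUC1-C OE and 8 of the 10 were called lower, and all 4 epithelial markers (EPCAM, KRT8, KRT18, CDH1) were lower. The sum of these 4 was 255 to 260 CPM in LNCaP and 32.7 to 38.7 in LNCaP/MUC1-C OE. The part of these losses in the interferon results was not tested.

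**Figure D4:**
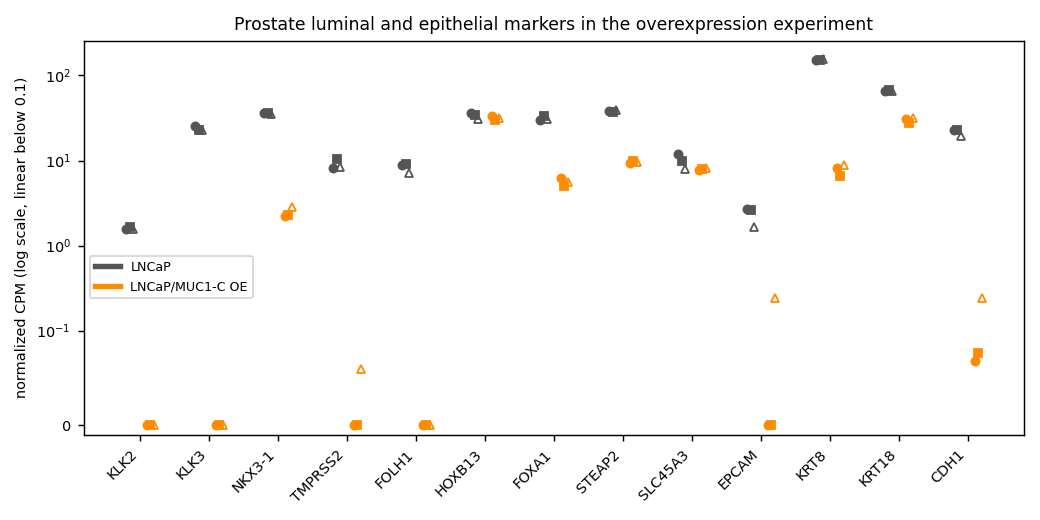
Normalized CPM (y axis, log scale, linear below 0.1) of 9 of the 10 prostate luminal and all 4 epithelial markers (x axis) in 3 LNCaP (grey) and 3 LNCaP/MUC1-C OE (orange) libraries, with circles, squares and triangles for replicates 1, 2 and 3. KLK2, KLK3 and FOLH1 are at 0 in every LNCaP/MUC1-C OE library, whereas HOXB13 overlaps between the groups.

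**Figure D5:**
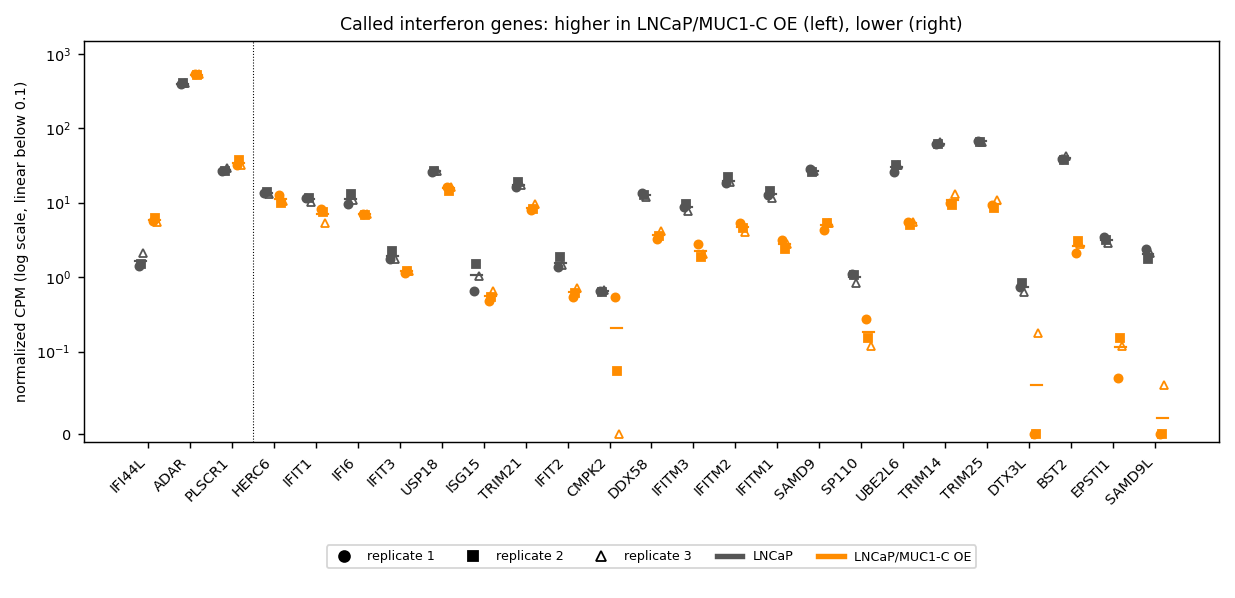
Normalized CPM (y axis, log scale, linear below 0.1) in each library of the overexpression experiment for the 3 interferon genes called higher and the 22 called lower in LNCaP/MUC1-C OE, separated by the dotted line. Symbols are replicates and short bars are group means. All called genes except ISG15 show no overlap between the groups, and BST2 lies at 37.5 to 42.3 CPM in LNCaP and 2.10 to 3.06 in LNCaP/MUC1-C OE.

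None of the regulators was called. STAT2 had 38.6, 35.2 and 40.3 CPM in LNCaP and 42.4, 39.0 and 37.1 in LNCaP/MUC1-C OE (log2 0.05 ± 0.07, edgeR adjusted p = 0.521). IRF1 had 7.88, 7.39 and 7.17 against 6.36, 7.50 and 6.04 (log2 -0.18 ± 0.13, edgeR adjusted p = 0.212), and IRF9 had 6.45, 5.65 and 6.44 against 5.01, 4.36 and 6.76 (edgeR adjusted p = 0.311). The groups overlapped for all 3, and IRF7 had 1, 0 and 1 counts in LNCaP and 0 in LNCaP/MUC1-C OE.

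Of the RNA sensors, DDX58 had 13.5, 12.6 and 11.9 CPM in LNCaP and 3.25, 3.52 and 4.18 in LNCaP/MUC1-C OE and fell by 1.79 on the log2 scale (± 0.13, edgeR adjusted p = 1.83e-09). ADAR moved the other way, from 392, 402 and 402 CPM to 534, 516 and 530 (1.32-fold, log2 0.40 ± 0.04, edgeR adjusted p = 1.78e-07). EIF2AK2 was not called (edgeR adjusted p = 0.0685), and IFIH1 had 7, 3 and 3 counts against 0, 1 and 1. The OAS genes were at 0 to 9 counts in every library and none could be tested. OAS1 had 4, 3 and 3 counts in LNCaP and 0 in LNCaP/MUC1-C OE, and OASL, the highest, had 9, 6 and 5 against 3, 3 and 9.

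IFIT2 had 1.38, 1.85 and 1.45 CPM in LNCaP and 0.541, 0.612 and 0.717 in LNCaP/MUC1-C OE and fell by 1.30 on the log2 scale (± 0.29, edgeR adjusted p = 0.000779). IFIT1 and IFIT3 also fell, with log2 fold changes of -0.67 and -0.68 (edgeR adjusted p = 0.000309 and 0.0174), although IFIT3 was not called by DESeq2 or without LNCaP replicate 2. IFIT5, the most abundant, had 36.9, 39.4 and 38.2 CPM in LNCaP and 39.2, 42.0 and 41.7 in LNCaP/MUC1-C OE (log2 0.10 ± 0.06, edgeR adjusted p = 0.168). IFIT5 was thus the family member without a call here, and it was not called in the silencing experiment either.

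Of the membrane-associated factors, BST2, which holds budding virus at the cell surface, had 38.1, 37.5 and 42.3 CPM in LNCaP and 2.10, 3.06 and 2.81 in LNCaP/MUC1-C OE. It fell by 3.89 on the log2 scale (± 0.12, edgeR adjusted p = 2.56e-14), a 14.8-fold difference. IFITM1, IFITM2 and IFITM3 fell, with log2 fold changes of -2.24, -2.08 and -1.97 (edgeR adjusted p = 3.87e-10, 9.72e-11 and 1.51e-08). PLSCR1, a phospholipid scramblase, had 26.4, 26.7 and 29 CPM against 32.2, 37.3 and 32.0 and rose 1.23-fold (log2 0.30 ± 0.08, edgeR adjusted p = 0.00237). Its rise missed the threshold when libraries were scaled by their totals only, where the median log2 change of all genes was -0.16.

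SAMD9L and SAMD9, neighbors on chromosome 7 that restrict poxviruses, both fell. SAMD9L had 48, 33 and 40 counts in LNCaP and 0, 0 and 1 in LNCaP/MUC1-C OE (edgeR adjusted p = 4.00e-08), a ratio of summed normalized counts of 92.2 with a 95% counting interval of 16.2 to 3672. SAMD9 had 28.2, 25.6 and 26.5 CPM against 4.33, 5.28 and 5.38 and fell by 2.42 on the log2 scale (± 0.10, edgeR adjusted p = 2.04e-12). CMPK2, at 13, 12 and 13 counts against 8, 1 and 0, was also called (edgeR adjusted p = 0.0272), but was not called by DESeq2 or when any of 5 of the 6 libraries was left out. RSAD2, which overlaps it, had 0, 1 and 3 counts against 0, and ISG20 had 9, 3 and 5 against 4, 3 and 3.

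In the ISG15 system, TRIM25, a ubiquitin ligase that acts on RIG-I, was both the most abundant gene and the one that changed most, at 68.3, 65.8 and 66.3 CPM in LNCaP and 9.40, 8.57 and 10.7 in LNCaP/MUC1-C OE. It fell by 2.79 on the log2 scale (± 0.08, edgeR adjusted p = 1.36e-14). UBE2L6 had 25.8, 32.4 and 31.7 CPM against 5.55, 5.05 and 5.50 (log2 -2.47 ± 0.11, edgeR adjusted p = 4.39e-12), and USP18 fell by 0.75 (edgeR adjusted p = 2.80e-07). ISG15, at 0.640, 1.48 and 1.04 CPM against 0.474, 0.535 and 0.658, overlapped between the groups and was called near the threshold (edgeR adjusted p = 0.0418). HERC6 fell by 0.29 (edgeR adjusted p = 0.0225), HERC5 was not called (edgeR adjusted p = 0.567), and the calls of ISG15 and HERC6 were each lost under several alternatives.

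DTX3L had 15, 16 and 12 counts in LNCaP and 0, 0 and 3 in LNCaP/MUC1-C OE (edgeR adjusted p = 0.000227), a ratio of 10.9 with a 95% counting interval of 3.50 to 55.0. Its partner PARP9 had 19, 9 and 14 counts against 0, 2 and 3 and PARP12 had 7, 5 and 9 against 1, 0 and 1. Neither was tested. TRIM14, a mitochondrial signaling adaptor, had 61.1, 60.6 and 65.3 CPM in LNCaP and 10.0, 9.26 and 13.2 in LNCaP/MUC1-C OE and fell by 2.51 on the log2 scale (± 0.10, edgeR adjusted p = 4.80e-13). TRIM21, a cytosolic antibody receptor, and SP110 had log2 fold changes of -1.02 and -2.42 (edgeR adjusted p = 1.93e-07 and 8.17e-05).

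Among the induced genes of mostly unsettled function, EPSTI1 had 70, 59 and 55 counts in LNCaP and 1, 2 and 2 in LNCaP/MUC1-C OE and fell by 4.72 on the log2 scale (± 0.36, edgeR adjusted p = 3.73e-09). IFI44L went the other way, from 1.43, 1.48 and 2.08 CPM to 5.61, 6.20 and 5.50 (3.46-fold, log2 1.79 ± 0.19, edgeR adjusted p = 1.59e-07). Its neighbor IFI44, 3643 bases away on chromosome 1, had 2 to 7 counts per library and was not tested, nor was IFI27 at 17, 8 and 9 counts against 6, 8 and 9. IFI6 had 9.60, 13.1 and 10.9 CPM against 7.10, 6.73 and 7.05 and fell by 0.68 (± 0.13, edgeR adjusted p = 0.000161).

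Of 30 tested pathway genes, 9 were lower (30.0%) and 11 higher (36.7%) in LNCaP/MUC1-C OE, near the shares of all genes (34.1% and 33.2%). TYK2 had 22.5, 20.1 and 22.5 CPM in LNCaP and 61.8, 56.4 and 60.0 in LNCaP/MUC1-C OE and rose 2.74-fold (log2 1.45 ± 0.07, edgeR adjusted p = 7.92e-12). JAK1 had 140, 149 and 152 CPM against 194, 187 and 200 (1.32-fold, edgeR adjusted p = 1.62e-06). IFNAR1 and IFNAR2 fell, with log2 fold changes of -0.22 and -0.32 (edgeR adjusted p = 0.00157 and 0.000450), and IFNGR1 rose 1.5-fold (edgeR adjusted p = 1.50e-07). MYD88, an adaptor of Toll-like receptors, had 25, 31 and 18 counts against 7, 2 and 3 (edgeR adjusted p = 0.000183), and SOCS3, an inhibitor of cytokine signaling, fell by 0.99 (edgeR adjusted p = 0.0155). The ligand genes were at 0 counts in all 6 libraries, except IFNE at 1, 3 and 0 in LNCaP. JAK1 was at 140 to 152 CPM in LNCaP and, in the other table, at 6.83 to 7.71 CPM in vehicle-treated LNCaP-ER, levels that were normalized separately and not compared by a test.

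Of the 32 interferon genes tested in both experiments, 8 were called in both (25%), against 21.3% of the 11682 genes tested in both. DDX58, IFIT2, ISG15, HERC6 and SP110 were higher with DOX and lower with MUC1-C OE (15.6%, against 6.63% of all genes), and IFITM1, IFITM2 and UBE2L6 were lower in both (9.38%, against 3.56%). Of the first 5, DDX58, IFIT2 and HERC6 lost their DOX call without DOX 3 and under other alternatives, and ISG15 and HERC6 lost their MUC1-C OE call with DESeq2 and when single libraries were left out. SP110 lost a call only with DOX at an absolute log2 fold change of 1 or more. No gene was higher in both (3.18% of all genes) or lower with DOX and higher with MUC1-C OE (7.94% of all genes). Of the 11 genes that rose with DOX, IRF7, OAS1, OAS2, OASL and RSAD2 were too low to test in the overexpression experiment, and IRF1 was tested there without a call. The experiments share no libraries, and STAT2, IRF9, DHX58, EIF2AK2, IFIT5, HERC5 and IFI35 were called in neither.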

How the data were processed

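RNA-Seq libraries of LNCaP-ER and LNCaP cells were analysed, 12 in all, grouped by their labels. The authors prepared stranded mRNA libraries, used STAR per the submitters' processing notes (GRCh38, version not given in the sources used here) and deposited raw counts per gene symbol. The authors also deposited TPM values for the silencing experiment. A further 12 columns of per-sample values for other cells were not used. Here each count table was fitted separately with edgeR 4.0.16 (TMM, default low-count filter, robust quasi-likelihood test, Benjamini-Hochberg adjustment over all genes tested, adjusted p under 0.05), after the script was tested on simulated data. Depth bounds the precision for low genes, and 3 counts or fewer in every library were treated as a floor, which covers counting error only. TPM values were tested with limma 3.58.1 on log2(TPM + 1) or log2(TPM + 0.1), for genes with 1 TPM or more in 3 libraries, and DESeq2 1.42.0 was run as an alternative. Members, role groups and lists were chosen with earlier results of these data known. Every role group was counted, and the 4 regulators, the called gene with the largest change and the most abundant gene of each group are given by library. Genes outside that rule were named after their values were seen. A few genes of these lists are counted but not reported here by name.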

Additional observations from a re-analysis of the deposited data

How the results depend on the processing

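For the interferon genes, 15 were called with DOX and 25 with MUC1-C OE. Leaving out 1 library gave 7 to 18 calls with DOX (5 to 14 higher, 2 to 5 lower) and 22 to 25 with MUC1-C OE (19 to 22 lower, 3 higher). In these fits 13.1% to 35.3% of all genes were called with DOX and 60.6% to 67.5% with MUC1-C OE. Without vehicle 1, 2 or 3 or without DOX 3, 12, 9, 7 and 9 were called with DOX (23.8%, 14.4%, 13.1% and 13.7% of all genes). With TPM, 17 were higher and 1 lower at either pseudocount (53.1% higher, against 43.8% of all genes at a pseudocount of 1), and 7 were higher and 0 lower without a filter (14.3%, against 6.41%), so that 7 were called in all. DESeq2 called 18 with DOX and 21 with MUC1-C OE (31.5% and 62.2% of all genes). For the other pathway genes, 14 were called with DOX, 2 to 14 when 1 library was left out, 0 at an absolute log2 fold change of 1 or more and 8 with TPM and no filter. The shares of all genes were 27.3%, 13.1% to 35.3%, 6.73% and 6.58%. At that fold limit, 1 interferon gene was higher with MUC1-C OE (3.36% of all genes) and 3 pathway genes were called (13.9% of all genes). The fold limit removes calls by its construction, and the cause of the other shifts was not tested. Among called genes, the direction reversed for PTPN2 with TPM (log2 0.197, 0.212 at the smaller pseudocount and 0.197 without a filter), IRF2BP2 (0.0147, 0.0122 and 0.0147) and IFNGR2 with MUC1-C OE when scaled by library totals only (-0.0141). Of genes not called by edgeR, TBK1 was called higher with TPM (0.520 and 0.538, against -0.02) and PTPN11 lower with MUC1-C OE when scaled by totals only (-0.105, against 0.05). Of all genes called with DOX, 46.8% were higher with counts, 95.2% with TPM at a pseudocount of 1 and 59.6% when scaled by totals. The number of genes called with DOX was 4006, against 2200 without vehicle 2, 2002 without vehicle 3, 2067 without DOX 3, 988 at the fold limit and 1589 with TPM and no filter, and the number with MUC1-C OE was 9312, against 1917 at the fold limit.

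The replicate numbers are shared between groups, and the labels do not say whether they pair the cultures. Correlations of same-numbered deviations were from -0.15 to 0.09, which does not settle it. With a replicate block, 18 interferon genes were called with DOX (5 lower, 13 higher) and 25 with MUC1-C OE (22 lower, 3 higher). Of all genes 15.9% were lower and 12.9% higher with DOX, and 32.9% and 31.9% with MUC1-C OE. The block called 11 of 31 pathway genes with DOX and 19 of 30 with MUC1-C OE, where 28.8% and 64.8% of all genes were called. OAS2 was the member whose DOX call was lost with the block (edgeR adjusted p = 0.0646).

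Depth limits the ligands, OAS2, IFI27 and XAF1, and most OAS, MX and PARP genes of the overexpression table. The part of the lost luminal markers in the overexpression results, and of the MUC1 count in the library labelled DOX replicate 2, was not tested.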
